A study of Mus musculus with 4 samples.

Results

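The drug-metabolising cytochrome P450 genes of families 1 to 3 were described in cultured mouse hepatocytes that lacked the transcription factor ChREBP or carried it, with and without fructose. The members were the genes whose platform symbol is Cyp1, Cyp2 or Cyp3 followed by a subfamily letter and a number: 57 of 22180 named genes, read by 60 probe sets and falling into 16 subfamilies. They comprised 14 Cyp2c, 9 Cyp2d, 7 Cyp2j, 7 Cyp3a, 5 Cyp2b, 4 Cyp2a and 2 Cyp1a genes, and 1 each of Cyp1b, Cyp2e, Cyp2f, Cyp2g, Cyp2r, Cyp2s, Cyp2t, Cyp2u and Cyp2w. The cells were primary hepatocytes of male mice aged 2 months, cultured for 16 h in serum-free medium, and the 4 groups were Chrebp-KO with 25 mM fructose (KO fructose), Chrebp-KO without it (KO control), wild type with 25 mM fructose (WT fructose) and wild type without it (WT control). Each group had 1 array, hybridised with biotin-labelled product of 400 ng total RNA, so every difference below compares 2 arrays, has no replicate check and carries no p-value. The labels do not say how the Chrebp allele was made or whether cells of several mice were pooled, so the difference between mice, cultures and genotypes cannot be told apart.

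Cytochromes P450 of these families sit in the membrane of the endoplasmic reticulum, where they insert oxygen into drugs, plant chemicals, steroids, fatty acids and other small molecules. They are most abundant in hepatocytes and receive electrons from P450 reductase and cytochrome b5. Many are inducible: the nuclear receptor CAR (gene Nr1i3) drives Cyp2b10, its relative PXR (Nr1i2) drives Cyp3a11, and the aryl hydrocarbon receptor (Ahr) drives Cyp1a1 and Cyp1a2. In mouse liver some members differ by sex, Cyp2d9 being male-predominant and Cyp2b9, Cyp2b13, Cyp2a4 and Cyp3a44 female-predominant. Neighbouring genes of a subfamily arose by duplication and are close in sequence, so their probes can bind each other's transcripts, and the sharing of probes within Cyp2a, Cyp2b, Cyp2c, Cyp2d, Cyp2j and Cyp3a was not tested.

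Values are log2 expression, and a gene was called detected above 4.764 (log2), the 95th percentile of the mean level of 1105 olfactory receptor genes. By this rule 37 of 57 members were detected on at least 1 array (64.9%, against 49.8% of all named genes), 31 on all 4 arrays and 6 on some of them. Hepatocyte markers were high on every array: all 7 measured of 8 lay between 7.40 and 12.66 in KO fructose, 7.47 and 12.63 in KO control, 7.42 and 12.58 in WT fructose, and 7.42 and 12.63 in WT control. Of markers of other cell types, 8 of 10 macrophage, 6 of 8 endothelial and 4 of 7 stellate markers were detected on at least 1 array, with the stellate Des, Lrat and Col3a1 below background on all. Of 6 measured cholangiocyte markers of 7, Sox9 (9.39 to 10.30) and Cldn3 (10.07 to 10.97) were bright on every array, and Krt19, Krt7, Epcam and Cftr were below background on all. Mlxipl, which encodes ChREBP, had levels of 7.37 in KO fructose, 7.42 in KO control, 8.43 in WT fructose and 8.08 in WT control. It was lower in KO but well above background, and where its probe set lies relative to the deleted part is not given in the sources used here. The RNA of a whole culture was measured, so fewer cells making a transcript and less of it per cell cannot be told apart.

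**Figure D1:**
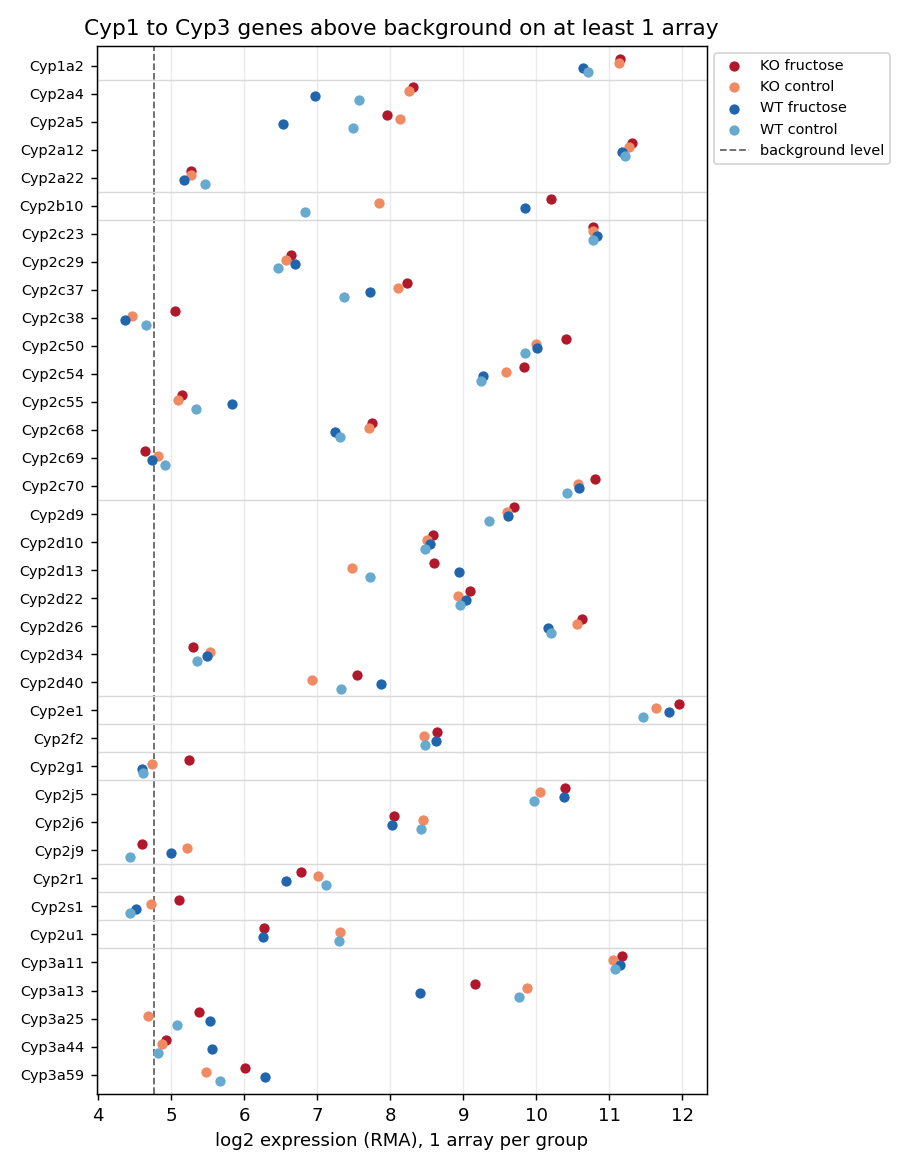
Level of the 37 detected genes on each array (x axis, log2 expression; 1 point per array), grouped by subfamily, with the background of 4.764 as a dashed line. Most genes have 4 points close together, and Cyp2b10, Cyp2d13, Cyp2u1, Cyp3a13, Cyp2a4 and Cyp2a5 have spread ones.

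Of the 31 members detected on all 4 arrays, 20 (64.5%) were within 1.5-fold in each of the 4 comparisons of fructose with control medium and of KO with WT, against 75.8% of 9786 genes. Over all detected genes, 11.9% in KO and 20.3% in WT differed by at least 1.5-fold with fructose, and 5.31% in fructose medium and 1.58% in control medium did so between KO and WT. Cyp3a11, the main PXR-induced Cyp3a enzyme of mouse liver, had levels of 11.18 in KO fructose, 11.06 in KO control, 11.15 in WT fructose and 11.08 in WT control. Cyp2e1, which oxidises ethanol, had levels of 11.96 in KO fructose, 11.64 in KO control, 11.82 in WT fructose and 11.46 in WT control. Cyp2e1 was thus 1.24-fold higher with fructose in KO and 1.28-fold in WT. Cyp2a12 lay between 11.17 and 11.31, Cyp2c23 between 10.77 and 10.84, and Cyp2d10 between 8.48 and 8.58 over the 4 arrays.

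The clearest response to fructose was that of Cyp2b10, the phenobarbital-inducible CAR target. It had levels of 10.20 in KO fructose and 7.84 in KO control, and of 9.84 in WT fructose and 6.84 in WT control. Both fructose arrays lay above both control arrays. Cyp2b10 was 5.12-fold higher with fructose in KO (log2 difference 2.36) and 8.04-fold higher in WT (3.01), which ranked 14th highest of 10752 detected genes in KO and 16th of 10814 in WT. The fructose effect was smaller in KO by 0.65 log2 units, a 1.57-fold difference, while the KO level was the higher of the 2 genotypes in both media: by 0.35 in fructose and by 1.004 in control medium.

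The other 4 Cyp2b genes stayed below background on all 4 arrays. Cyp2b9 lay between 3.38 and 3.48, Cyp2b13 between 3.64 and 3.70, Cyp2b19 between 3.63 and 3.77, and Cyp2b23 between 3.44 and 3.67. To compare the gene that was high with a close neighbour that was not, the 250 bases before the start of Cyp2b10 and of Cyp2b9 are printed. Beside them are those of Cyp2a4 and Cyp2a5, whose levels were higher in KO than in WT in both media. All are from RefSeq on GRCm38.p6, written 5′ to 3′ on the gene's strand, and capitals mark matches, on either strand, to the TATA box core TATAAA, the octamer TTGCATAA, the nuclear receptor half-site AGGTCA or the E-box CACGTG.

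Cyp2b10, chr7:25897408-25897657, strand +: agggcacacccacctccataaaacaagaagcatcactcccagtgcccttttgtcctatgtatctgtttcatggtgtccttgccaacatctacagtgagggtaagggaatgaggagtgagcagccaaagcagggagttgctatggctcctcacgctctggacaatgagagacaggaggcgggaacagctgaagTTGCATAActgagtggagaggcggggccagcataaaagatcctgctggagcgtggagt

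Cyp2b9, chr7:26173159-26173408, strand +: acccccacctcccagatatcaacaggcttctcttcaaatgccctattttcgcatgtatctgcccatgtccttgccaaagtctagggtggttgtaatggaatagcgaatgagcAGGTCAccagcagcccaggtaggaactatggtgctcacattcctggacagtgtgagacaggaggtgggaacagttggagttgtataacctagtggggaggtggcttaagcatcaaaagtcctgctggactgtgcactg

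Cyp2a4, chr7:26306942-26307191, strand +: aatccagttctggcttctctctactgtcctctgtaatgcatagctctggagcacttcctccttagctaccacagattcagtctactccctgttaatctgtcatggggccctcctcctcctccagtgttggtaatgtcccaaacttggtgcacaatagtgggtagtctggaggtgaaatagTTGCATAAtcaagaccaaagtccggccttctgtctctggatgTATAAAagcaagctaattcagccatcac

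Cyp2a5, chr7:26835089-26835338, strand +: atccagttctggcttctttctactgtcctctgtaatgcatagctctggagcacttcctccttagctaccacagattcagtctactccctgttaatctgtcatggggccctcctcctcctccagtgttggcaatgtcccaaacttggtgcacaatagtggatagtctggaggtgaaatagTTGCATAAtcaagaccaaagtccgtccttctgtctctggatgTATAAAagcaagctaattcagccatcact

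The Cyp2b10 and Cyp2b9 windows were 78.2% identical over 238 aligned bases, and those of Cyp2b9 and Cyp2b13 99.2% over 250 bases. The octamer TTGCATAA, chosen after these sequences were read, lay 58 to 51 bases before the start of Cyp2b10, 70 to 63 before that of Cyp2a4 and 71 to 64 before that of Cyp2a5, and was not in the Cyp2b9 window. It occurred in 5 of 52 windows of the 49 members with an entry (Cyp2a4, Cyp2a5, Cyp2b10, Cyp2b19 and Cyp2b23), against 0.694% of all 32851 windows of the same length. Its share among members is not a test, since the octamer was chosen after the windows of Cyp2b10, Cyp2a4 and Cyp2a5 were read. Cyp2b19 and Cyp2b23, which also hold the octamer, were not detected here. AGGTCA was in the Cyp2b9 window and not in the Cyp2b10 window, in 16 of the 52 member windows (30.8%) and in 14.0% of all. TATAAA was found near the start of Cyp2a4 and Cyp2a5, in 22 of the 52 (42.3%) and in 12.4% of all. CACGTG, the core of which ChREBP sites are built, was in none of the printed windows, in 1 of the 52 member windows (Cyp2j6) and in 6.02% of all. Some member windows are near copies, as those of Cyp2b9 and Cyp2b13 are, so the member shares may count the same site more than once. Bases further upstream were not examined. These matches describe letters and not binding.

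The genes with levels most like those of Cyp2b10 over the 4 arrays, by Euclidean distance of the values centred on each gene's mean among 9226 other genes detected on all arrays, were Adm, Atf3, Tat, Ddit3 and Kcnk5 (distances 0.72, 0.74, 0.83, 0.87 and 0.88). Kcnk5, a potassium channel gene, had levels of 7.98 in KO fructose, 6.16 in KO control, 8.62 in WT fructose and 5.72 in WT control. In none of the 5 was the KO level in control medium as far above WT as in Cyp2b10: their differences there were between 0.04 and 0.43.

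Besides Cyp2b10, Cyp2d13 was at least 2-fold higher with fructose in both genotypes. RefSeq lists Cyp2d13 as a transcribed pseudogene. It had levels of 8.60 in KO fructose and 7.48 in KO control, and of 8.95 in WT fructose and 7.73 in WT control, so that it was 2.18-fold higher in KO and 2.33-fold higher in WT. Cyp2d40, another gene of the Cyp2d cluster, had levels of 7.55 in KO fructose, 6.93 in KO control, 7.87 in WT fructose and 7.33 in WT control. It was 1.54-fold higher with fructose in KO and 1.45-fold in WT, and like Cyp2d13 was lower in KO in both media. The other 5 detected Cyp2d genes moved little: their fructose differences were between -0.24 (Cyp2d34) and 0.17 (Cyp2d22) in KO and between -0.03 (Cyp2d26) and 0.27 (Cyp2d9) in WT. Cyp2d22 is held to be the mouse gene most like human CYP2D6, and Cyp2d9 is a male-predominant steroid hydroxylase. Cyp2d11 and Cyp2d12 were not detected.

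In all, 2 of 37 detected members were at least 2-fold higher and 1 lower with fructose in KO, where 1.68% of 10752 genes were higher and 1.18% lower. In WT, 2 of 34 detected members were higher and 2 lower, where 3.1% of 10814 genes were higher and 3.01% lower. The members' median difference was 0.08 in KO, against 0.00 over all detected genes, and 0.12 in WT, against -0.03. At 1.5-fold, 5 members were higher and 3 lower in KO, where 6.11% and 5.75% of all genes were, and 4 were higher and 4 lower in WT, where 9.46% and 10.8% were. The counts are of measured values, so they include the dim Cyp2c38 and Cyp2j9 in KO, whose bounds against the background are 1.22-fold higher and 1.37-fold lower. The WT counts at 1.5-fold stood near the shares over all genes.

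Cyp2u1 and Cyp3a13 were lower with fructose. Cyp2u1, whose human counterpart hydroxylates long-chain fatty acids, had levels of 6.28 in KO fructose and 7.32 in KO control, and of 6.26 in WT fructose and 7.30 in WT control. It was 2.05-fold lower in KO and 2.06-fold lower in WT, with KO and WT within 0.02 log2 units of each other in both media. Cyp3a13 had levels of 9.16 in KO fructose and 9.87 in KO control, and of 8.41 in WT fructose and 9.77 in WT control. It was 1.64-fold lower with fructose in KO and 2.56-fold lower in WT. Cyp2r1, a vitamin D 25-hydroxylase, differed by -0.23 in KO and by -0.55 in WT, and Cyp2j6 by -0.40 in KO and -0.41 in WT. Cyp2j5, an arachidonic acid epoxygenase on the same chromosome 4 cluster as Cyp2j6, differed the opposite way, by 0.34 in KO and 0.41 in WT.

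The Cyp3a subfamily was split. Cyp3a59 had levels of 6.01 in KO fructose, 5.48 in KO control, 6.28 in WT fructose and 5.67 in WT control, and was 1.44-fold higher with fructose in KO and 1.52-fold in WT. Cyp3a25 had levels of 5.38 in KO fructose, 4.68 in KO control, 5.53 in WT fructose and 5.08 in WT control. Its KO control level was under the background, so the difference in KO was at least 1.54-fold higher, beside 1.37-fold higher in WT. Cyp3a44, female-predominant in mouse liver, had levels of 4.92 in KO fructose, 4.88 in KO control, 5.56 in WT fructose and 4.82 in WT control. WT fructose alone stood apart, 1.67-fold above WT control. Over the 5 detected Cyp3a genes the median fructose difference was 0.12 in KO and 0.45 in WT, with Cyp3a13 as the only negative value in either genotype. The WT median is the value of the weakly expressed Cyp3a25, while the brightest, Cyp3a11, differed by 0.07 in WT. Cyp3a16 and Cyp3a57 were not detected.

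**Figure D2:**
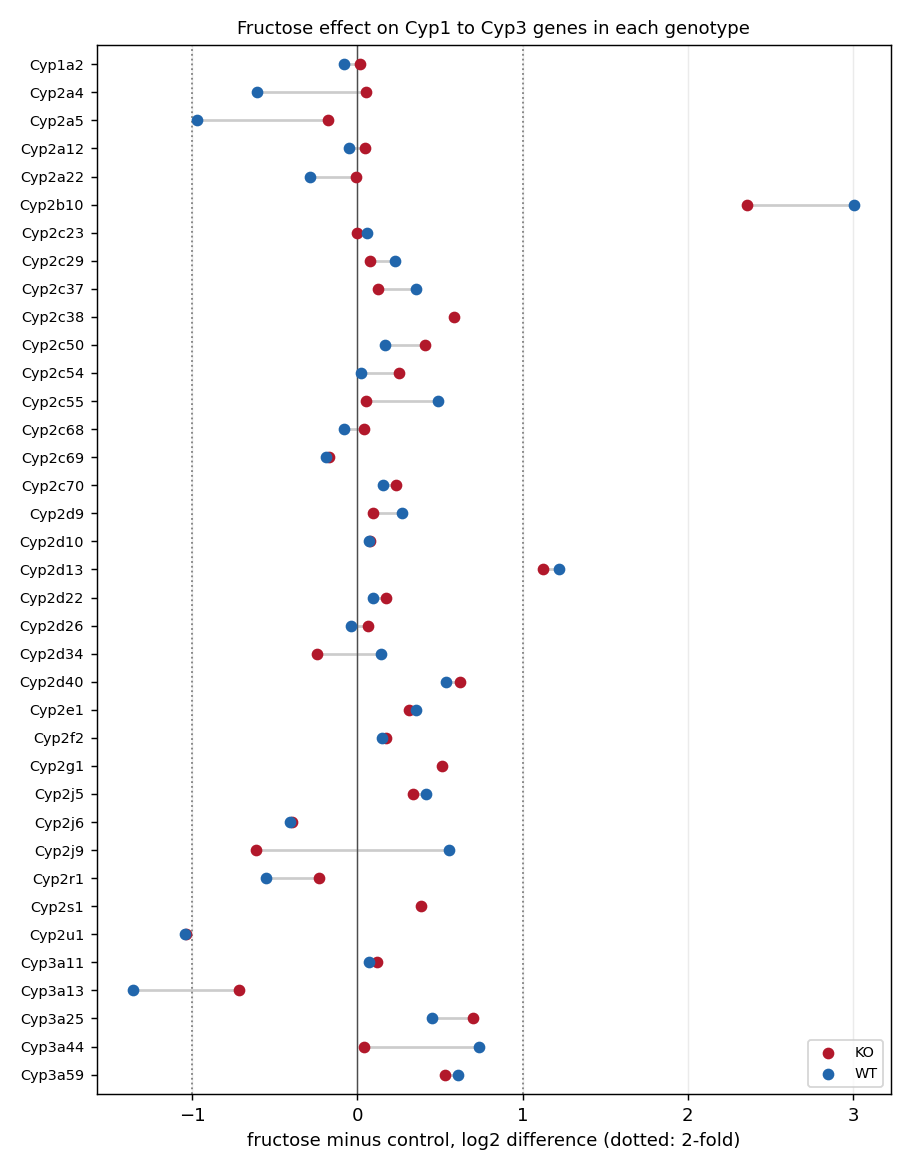
Fructose minus control difference (x axis, log2) of each gene detected in the comparison, in KO (red) and WT (blue), with dotted lines at 2-fold and dim genes plotted as measured. Cyp2b10 lies far to the right at 2.36 in KO and 3.01 in WT, Cyp2d13 at 1.12 and 1.22, and Cyp2u1 at -1.04 in both.

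Members took opposite signs in KO and WT about as often as all genes did. Of the 31 members detected on all arrays, 18 were above 0 in both genotypes (58.1%, against 38.0% of 9786 genes), 6 were below 0 in both (19.4%, against 40.8%) and 7 had opposite signs (22.6%, against 21.2%). Across these 31 genes the KO and WT differences had a Pearson correlation of 0.92 (Spearman 0.77), or 0.83 without Cyp2b10, and over all 9786 genes it was 0.83. The 2 differences use separate arrays, but the arrays were normalised together, genes that share probes are not independent, and no p-value is attached.

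Cyp2a4 and Cyp2a5 were lower with fructose in WT and close to their control level in KO. Cyp2a5 hydroxylates coumarin and nicotine and Cyp2a4 hydroxylates testosterone. Cyp2a5 had levels of 7.96 in KO fructose and 8.13 in KO control, and of 6.53 in WT fructose and 7.49 in WT control. Cyp2a4 had levels of 8.32 in KO fructose and 8.26 in KO control, and of 6.96 in WT fructose and 7.57 in WT control. For both genes the KO arrays lay above both WT arrays, and WT fructose was the lowest. With fructose, Cyp2a5 was 1.13-fold lower in KO and 1.96-fold lower in WT, and Cyp2a4 1.04-fold higher in KO and 1.52-fold lower in WT. Subtracting the WT effect of fructose from the KO effect gave 0.79 for Cyp2a5 and 0.66 for Cyp2a4. Among the other members detected on all arrays, it gave 0.64 for Cyp3a13, -0.65 for Cyp2b10 and -0.69 for the dim Cyp3a44.

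Cyp2a5 and Cyp2a4 were also the members at least 2-fold higher in KO in fructose medium, 2.70-fold and 2.55-fold, ranking 14th and 18th highest of 10688 detected genes. In control medium they were 1.56-fold and 1.62-fold higher in KO. Their printed upstream windows differed at 4 of 249 aligned bases (98.4% identity), and their probe sets may read each other's transcripts, so the 2 genes may not be separate observations. The other Cyp2a genes differed less. Cyp2a22 had KO minus WT differences of 0.09 in fructose and -0.19 in control medium, and Cyp2a12 of 0.14 and 0.05. All 4 Cyp2a genes were lower with fructose in WT (median -0.45), and in KO 2 were above and 2 below 0 (median 0.02).

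In fructose medium 2 of 36 detected members were at least 2-fold higher in KO and 0 lower, where 0.543% of 10688 genes were higher and 0.739% lower. In control medium 1 of 34, Cyp2b10 at 2.01-fold, was higher and 0 were lower, where 0.0373% of 10720 genes were higher and 0.196% lower. At 1.5-fold, 6 members were higher and 2 lower in KO in fructose medium, where 2.45% and 2.86% of all genes were, and 5 were higher and 0 lower in control medium, where 0.476% and 1.1% were. Of the 6, Cyp2g1, Cyp2s1 and Cyp2c38 were below background in WT and are under 1.5-fold as bounds, as is Cyp2j9 of the 5. The members' median was 0.08 in fructose medium, against 0.01 over all detected genes, and 0.07 in control medium, against -0.01. The median size of a KO minus WT difference, whatever its sign, was 0.30 among members and 0.16 among all genes in fructose medium, and 0.18 and 0.11 in control medium. For the difference of the fructose effects, 0 members were at least 2-fold higher and 1, the dim Cyp2j9, was lower of 37, where 0.443% and 0.588% of 11050 genes were. At 1.5-fold 4 were higher and 3 lower, where 2.86% and 2.6% were.

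Several Cyp2c genes were higher in KO by modest amounts. Cyp2c37, a CAR-inducible arachidonic acid hydroxylase, had levels of 8.23 in KO fructose and 8.11 in KO control, and of 7.73 in WT fructose and 7.37 in WT control. Both KO arrays lay above both WT arrays, by 1.42-fold in fructose and 1.67-fold in control medium. Cyp2c54 had levels of 9.83 in KO fructose, 9.58 in KO control, 9.27 in WT fructose and 9.25 in WT control, and was 1.47-fold higher in KO in fructose medium. Cyp2c68 was 1.43-fold and Cyp2c50 1.32-fold higher in KO in fructose medium, and 1.32-fold and 1.11-fold in control medium. Cyp2c70, which makes muricholic acids from chenodeoxycholic acid, differed by 0.22 and 0.15. Of 9 detected Cyp2c genes in each medium, 6 were above 0 in fructose medium (median 0.40) and 7 in control medium (median 0.15). The 2 sets differ: the dim Cyp2c38, above background only in KO fructose, counts in fructose medium, and Cyp2c69 takes its place in control medium. Over all detected genes, 5608 of 10688 were above 0 in fructose medium (median 0.01) and 5145 of 10720 in control medium (median -0.01). With fructose, 8 of 10 detected Cyp2c genes were above 0 in KO (median 0.10) and 7 of 9 in WT (median 0.16). Among all detected genes 5314 of 10752 were above 0 in KO (median -0.004) and 5138 of 10814 in WT (median -0.03). No Cyp2c gene but the dim Cyp2c38 in KO reached 1.5-fold with fructose.

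Cyp2c55 stood on the other side, and its value depends on the probe set. Its averaged level was 5.15 in KO fructose, 5.10 in KO control, 5.84 in WT fructose and 5.35 in WT control, 1.61-fold lower in KO in fructose medium. One of its probe sets read 5.73 in KO fructose, 4.99 in KO control, 6.56 in WT fructose and 5.33 in WT control. The other read 4.58 in KO fructose, 5.21 in KO control, 5.11 in WT fructose and 5.36 in WT control. The first was higher with fructose by 0.74 in KO and 1.24 in WT, while the second, below background in KO fructose, was lower by at least 0.44 in KO and differed by -0.26 in WT. The averaged gene differed by 0.06 in KO and 0.49 in WT. Cyp2c29, a phenobarbital-inducible enzyme, likewise had a probe set below background (2.88 to 3.09) and a bright one, which read 10.41 in KO fructose, 10.05 in KO control, 10.46 in WT fructose and 9.94 in WT control. The bright probe set alone differed with fructose by 0.36 in KO and 0.52 in WT, against 0.08 and 0.23 after averaging. The probe sets of Cyp2f2, a naphthalene-oxidising enzyme, gave 0.15 and 0.19 in KO and 0.18 and 0.12 in WT.

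Cyp1a2, an aryl hydrocarbon receptor target that metabolises caffeine, was higher in KO in both media. It had levels of 11.15 in KO fructose and 11.13 in KO control, and of 10.64 in WT fructose and 10.72 in WT control, 1.42-fold and 1.33-fold higher in KO with fructose and without it. Its fructose difference was 0.02 in KO and -0.08 in WT. Cyp1a1, the more inducible gene of the pair, stayed below background on all arrays (4.31 to 4.41), as did Cyp1b1 (3.55 to 3.65). Cyp2d26 was 1.37-fold higher in KO in fructose and 1.27-fold in control medium. Cyp3a13 was 1.68-fold higher in KO in fructose medium and 1.07-fold in control medium.

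**Figure D3:**
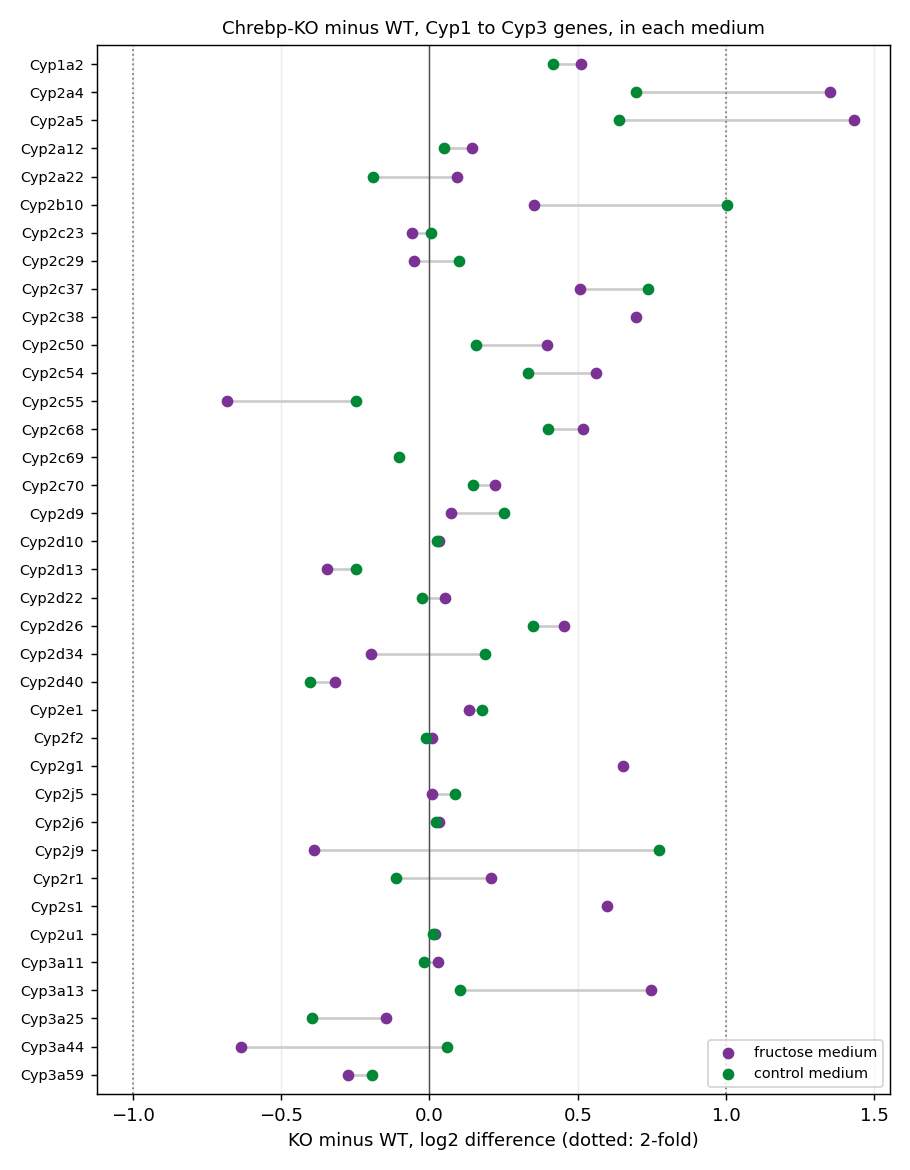
KO minus WT difference (x axis, log2) of each gene detected in the comparison, in fructose medium (purple) and control medium (green), with dotted lines at 2-fold and dim genes plotted as measured. Cyp2a4 and Cyp2a5 lie furthest right in fructose medium at 1.35 and 1.43, and Cyp2b10 in control medium at 1.004.

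Of the 31 members detected on all arrays, 18 were above WT in both media (58.1%, against 30.1% of 9786 genes), 4 were below in both (12.9%, against 29.4%) and 9 had opposite signs (29.0%, against 40.5%). The fructose medium and control medium differences had a Pearson correlation of 0.71 (Spearman 0.73) across these 31 genes and 0.34 across all 9786. They use separate arrays, with the same reservations on joint normalisation and shared probes. In either medium the difference between mice, cultures and genotypes cannot be told apart, so the 2 differences may not be independent. Markers of non-parenchymal cells were mostly lower in KO. Of detected macrophage markers 7 of 8 in fructose and 6 of 7 in control medium were lower in KO, with medians of -0.57 and -0.36, and all 6 detected endothelial markers were lower in both, with medians of -0.37 and -0.41. Summed on the linear scale, the 8 endothelial markers came to 575 in KO fructose, 596 in KO control, 770 in WT fructose and 839 in WT control. The 10 macrophage markers came to 2747 in KO fructose, 2603 in KO control, 2316 in WT fructose and 2680 in WT control. Most of that sum was Cd68, at 2390 in KO fructose, 2231 in KO control, 1768 in WT fructose and 2111 in WT control, the only detected macrophage marker higher in KO. Without Cd68 the sum was 357 in KO fructose, 373 in KO control, 548 in WT fructose and 570 in WT control. Past 1.5-fold were Timd4 (-1.01 in fructose medium and -0.81 in control medium), Marco (-0.84 and -0.72), C1qb (-0.72 and -0.96), C1qa (-0.69 and -0.36), and the endothelial Dnase1l3 (-0.88 and -0.64), Lyve1 (-0.62 and -0.46) and Cdh5 (-0.35 and -0.68). Vsig4 and C1qc of the macrophage list and Stab2 and Clec4g of the endothelial list were below background on all arrays. The 7 hepatocyte markers had medians of 0.08 in fructose and -0.02 in control medium, the detected stellate markers 0.02 and -0.02, and the 2 detected cholangiocyte markers 0.26 and -0.28. With fructose, Sox9 differed by 0.82 in KO and 0.47 in WT, and Cldn3 by -0.16 and -0.90. The macrophage marker C1qb differed by -0.44 in KO and -0.68 in WT, and the dim stellate marker Reln by at least 0.40 in KO. The part of cell composition in the higher P450 levels was not tested.

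Besides Cyp3a25, 5 members were above background on some arrays only, as dim signals. Cyp2g1, Cyp2s1 and Cyp2c38 were above background only in KO fructose, at 5.24, 5.11 and 5.06, which is at least 1.40-fold, 1.27-fold and 1.22-fold above WT fructose. Cyp2j9 had levels of 4.61 in KO fructose and 5.22 in KO control, and of 4.99 in WT fructose and 4.44 in WT control. Cyp2c69 was between 4.65 and 4.92. The 20 members below background on all arrays ranged from 2.53 to 4.43 and included Cyp2j8, Cyp2j11, Cyp2j12, Cyp2j13, Cyp2c39, Cyp2c40, Cyp2c65, Cyp2c66, Cyp2t4 and Cyp2w1.

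The partners and regulators of these enzymes were read from lists of textbook genes. Among 5 measured redox partners of 6 (cytochrome b5, its reductase and progesterone receptor membrane components), 0 reached 1.5-fold in any comparison. The share of all detected genes that did so with fructose was 11.9% in KO and 20.3% in WT. Between KO and WT it was 5.31% in fructose medium and 1.58% in control medium. The redox partners had a median fructose difference of -0.12 in KO and -0.12 in WT. Por, P450 reductase, was not analysed here. Among 11 measured heme synthesis and breakdown genes of 12 (median -0.17 in KO and 0.01 in WT), Hmox1, heme oxygenase, was higher with fructose by 1.40 in KO and 1.501 in WT. Cpox, coproporphyrinogen oxidase, was higher by 0.44 in KO and 1.25 in WT, and its level in fructose medium was 0.66 lower in KO. Fech, ferrochelatase, which inserts the iron, differed by -0.63 in KO and -0.49 in WT. The porphyrin-synthesis enzymes Urod and Uros were also lower in both genotypes, Urod differing by -0.51 in KO and -0.55 in WT and Uros by -0.41 and -0.47. Alas1, the rate-limiting enzyme of heme synthesis and a CAR target, differed by 0.04 in KO and 0.05 in WT.

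Of 19 measured receptors and cofactors of 20, 17 were detected with fructose in each genotype, 2 at least 1.5-fold higher and 2 lower in KO, and 1 higher and 4 lower in WT (medians 0.00 and -0.09). Over all detected genes 6.11% were higher and 5.75% lower in KO, and 9.46% and 10.8% in WT. Nr1i3 (CAR) was dim, with levels of 5.33 in KO fructose, 4.71 in KO control (below background), 5.26 in WT fructose and 4.97 in WT control. It was thus higher with fructose by at least 0.57 in KO and by 0.29 in WT. Nr1i2 (PXR) had levels of 6.91 in KO fructose and 7.65 in KO control, and of 6.55 in WT fructose and 7.34 in WT control, 1.68-fold lower with fructose in KO and 1.73-fold in WT. Ahr had levels of 9.14 in KO fructose and 8.99 in KO control, and of 8.29 in WT fructose and 9.19 in WT control. WT fructose alone was low, 1.87-fold under WT control, and the effect of fructose was higher in KO by 1.04. Of the others past 1.5-fold in a genotype, Nr0b2 (SHP) was lower in KO by at least 0.37 as a bound, Nr1h4 (FXR) differed by -0.50 in KO and -0.69 in WT, Hnf4a by -0.50 and -0.75, and Cebpb by 0.59 and 0.76.

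Other CAR and PXR targets differed in both directions. Of 19 detected (21 of 25 measured), 1 was at least 1.5-fold higher and 3 were lower with fructose in KO (median -0.08), and 2 were higher and 3 lower in WT (median 0.01), beside 6.11% and 5.75% of all genes in KO and 9.46% and 10.8% in WT. Abcc4, an efflux transporter, was lower with fructose by 1.01 log2 units in KO and by at least 1.21 in WT, where its fructose level was under the background. Ugt2b36, a glucuronosyltransferase, differed by -0.88 in KO and -1.70 in WT, and Ugt2b35 by -0.91 and -0.56. Sult1d1, a sulfotransferase, differed by 0.96 in KO and 0.33 in WT, and Gadd45b by -0.05 and 0.90. The transporters Abcc3 and Abcb1a passed 1.5-fold in WT: Abcc3 differed by -0.47 in KO and -0.76 in WT, and Abcb1a by 0.25 and 0.71. In KO against WT this list had a median of 0.09 in fructose medium and 0.11 in control medium, with Abcc4 higher in KO by at least 0.78 and by 0.59. Ugt2b36 (0.86), Sult1d1 (0.73) and Gadd45b (-0.84) also passed 1.5-fold in fructose medium, and Gstm3, a glutathione transferase, in control medium (0.60). Of 6 detected aryl hydrocarbon receptor targets (8 of 12 measured), Tiparp alone reached 1.5-fold, at 0.94 in WT beside 0.48 in KO. In either direction, 11.9% of all detected genes in KO and 20.3% in WT did so with fructose. The list medians were -0.05 in KO and -0.07 in WT.

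Genes that mark liver zones and sexes were set beside the P450s because many P450s are zonated or sex-specific. At 1.5-fold with fructose, 6.11% of all genes were higher and 5.75% lower in KO, and 9.46% and 10.8% in WT. Of pericentral genes (15 of 16 measured), 2 of 13 detected were at least 1.5-fold higher and 1 lower with fructose in KO (median 0.23), and 4 of 12 higher and 1 lower in WT (median 0.17). Glul, glutamine synthetase, differed by 0.10 in KO and 1.05 in WT, and Oat, ornithine aminotransferase, by 1.41 and 1.76. The others past 1.5-fold were Slc1a4 (0.66 in KO and 0.43 in WT), Rgn (0.56 and 0.67), Slc13a3 (0.36 and 0.73), Rhbg, an ammonium transporter (-0.87 and -0.40), and Ces1f, a carboxylesterase (-0.28 and -0.95). Between genotypes in fructose medium, Glul differed by -1.08 and Ces1f by 0.72. Of 12 detected periportal genes (13 of 16 measured), 3 were higher and 0 lower in each genotype (medians 0.23 and 0.23), namely Arg1, arginase, at 1.12 in KO and 0.82 in WT, Cps1, carbamoyl phosphate synthetase of the urea cycle, at 1.40 and 1.41, and Pck1, a gluconeogenic enzyme, at 1.61 and 0.93. Hsd17b6 was higher in KO by 0.78 in fructose and 0.62 in control medium, Serpina12 differed by -0.86 in fructose medium, and the fructose effect on Aldh1b1 was lower in KO (-0.59). In KO against WT the pericentral median was 0.21 in fructose and 0.16 in control medium, and the periportal median 0.04 and -0.10. Of 13 detected male-biased genes (14 of 16 measured), 5 were higher with fructose in KO and 3 in WT and 0 lower (medians 0.28 and 0.15), led by Hsd3b5 at 1.72 in KO and 1.84 in WT and Elovl3 at 1.73 and 1.82. Selenbp2 was at 0.75 in KO and 0.62 in WT, Slco1a1 at 0.74 and 0.29, and Nudt7 at 0.68 and 0.48. Of 6 detected female-biased genes (14 of 15 measured), 2 were higher and 2 lower in each genotype (medians 0.32 and 0.22). Sult1e1, estrogen sulfotransferase, was at 1.52 in KO and 0.95 in WT, Hamp2 at 0.85 and 1.01, and Slc22a26 at -1.08 and -0.74, while Fmo2 was below background with fructose and lower by at least 0.60 and 0.29. KO against WT, the male-biased list had medians of 0.11 in fructose and -0.01 in control medium and the female-biased list 0.01 and -0.03.

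**Figure D4:**
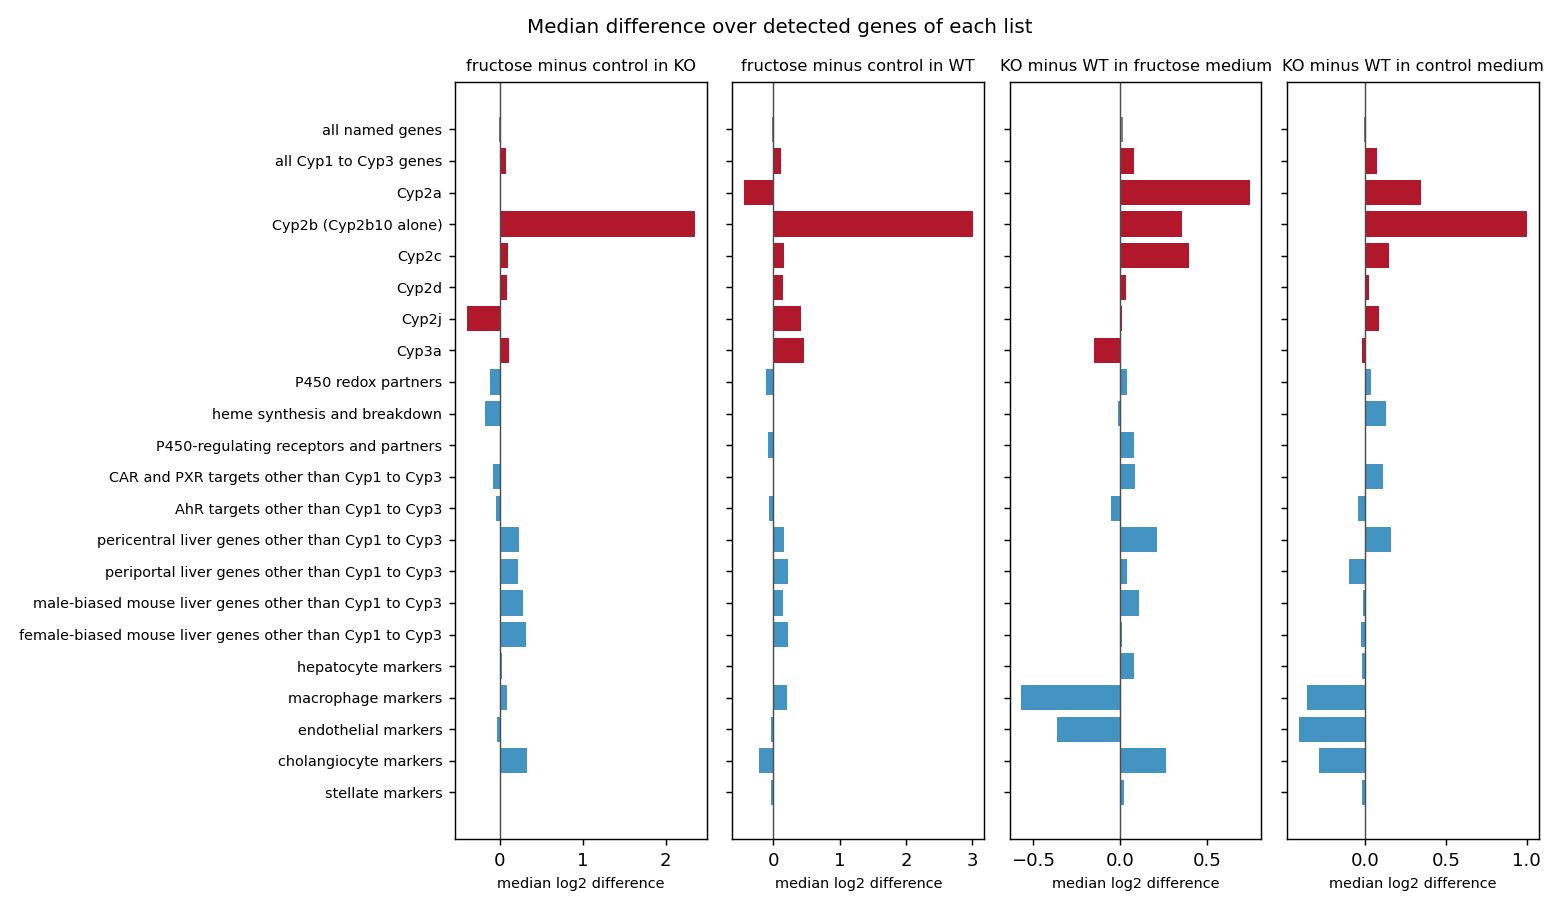
Median log2 difference (x axes) over the detected genes of each list, for the 4 comparisons; grey is all named genes, red the P450 genes and their larger subfamilies, blue the other lists. In both fructose panels the bar of Cyp2b, which is Cyp2b10 alone, is longest. In the KO minus WT panel for fructose medium the Cyp2a bar is at 0.75 and the macrophage bar at -0.57. The Cyp2a bar lies between Cyp2a4 and Cyp2a5 (1.35 and 1.43) and Cyp2a12 and Cyp2a22 (0.14 and 0.09).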

How the data were processed

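RNA of 4 hepatocyte cultures was hybridised to a whole-transcript array. Per the submitters' processing notes the authors used RMA (robust multi-array average), with R 3.4.0, and what the authors deposited is 1 log2 value for each probe set and array, already normalised between arrays, so a shift shared by all genes cannot be seen. Of 41345 probe sets, 23521 had 1 platform gene symbol and 1814 several. The first were averaged per gene in log2 (22180 genes). A gene entered a comparison when above background on at least 1 of its arrays, and where only the dimmer array was below, a bound against the background is given. Counts use the values as measured. The extraction label names liver RNA where the other labels name hepatocytes. Differences were taken as KO minus WT, as fructose minus control, and between the KO and WT effects of fructose. As no group was replicated, genes were counted by size, without a test. The number of arrays limits the precision, which depth does not describe here.

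The members and lists were chosen with earlier results of these data known. Named genes were the detected members (all 4 values where past 1.5-fold or brightest of a subfamily), list genes past 1.5-fold, Nr1i3, Nr1i2, Ahr and Por, Mlxipl, and the 5 genes nearest to Cyp2b10. Others that are named were chosen after their values were seen. The lists were redox partners, heme genes, receptors, CAR and PXR targets, aryl hydrocarbon receptor targets, pericentral, periportal, male-biased and female-biased genes, and markers of hepatocytes, macrophages, endothelium, cholangiocytes and stellate cells. Symbols were matched to RefSeq by Entrez number. Alternatives were median centring, repeated quantile normalisation, a loess correction (span 0.3), no filter, a filter 1 log2 unit above background, values raised to background, the brightest probe set, added probe sets with several member symbols, 1.5-fold and 3-fold thresholds, and the mean. Counting was tested on simulated data with 200 changed genes. Python 3.11.15, pandas 2.3.3, statsmodels 0.14.6 and Biopython 1.88 were used.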

Additional observations from a re-analysis of the deposited data

Results flagged for a closer look

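Cyp2j9 was singled out because its array values moved in opposite directions with fructose in KO (-0.61) and WT (0.55), a difference of effects of -1.16 on the log2 scale. This difference was not tested, since each group had 1 array. The gene was above background on 2 of the 4 arrays only, and with values raised to the background the difference was -0.68.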

How the results depend on the processing

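No paired analysis was possible because each group had 1 array, and no array could be left out. No difference of at least 2-fold changed sign under the alternatives, and smaller differences and the medians were not checked for a change of sign. Single members were recomputed only in comparisons where they differed by at least 1.5-fold. Of these values, 267 moved by at most 0.1 log2 and 9 moved further. Of the 9, 8 were Cyp2c38, Cyp2j9, Cyp2g1 and Cyp2s1 with values raised to the background. The other 1 was Cyp2c55 with its brightest probe set (-0.84, KO minus WT in fructose medium). The smaller fructose differences of Cyp2c55 and Cyp2c29 were thus left out, though they depend on the probe set. With the brightest one, Cyp2c55 was at 0.74 in KO and 1.24 in WT, against 0.06 and 0.49 averaged. Cyp2c29 was at 0.36 in KO and 0.52 in WT, against 0.08 and 0.23. Many of the 267 could not move. A filter leaves a gene's value as it is, the brightest probe set matters only for genes with several, and raising to the background leaves brighter values unchanged. At 1.5-fold the members higher and lower with fructose numbered 5 and 3 in KO and 4 and 4 in WT, those higher and lower in KO numbered 6 and 2 in fructose medium, 5 were higher in control medium, and 4 and 3 had a higher and a lower fructose effect in KO. At 3-fold only Cyp2b10 with fructose was left: 1 higher in KO and 1 in WT, 0 lower, and 0 in the KO minus WT comparisons and in the difference of effects. With the loess correction 1 member in place of 2 was at least 2-fold lower with fructose in WT, since Cyp2u1 was at -0.99 in place of -1.04. With the brightest probe set per gene 3 members in place of 2 were at least 2-fold higher there, the added one being Cyp2c55. With the stricter filter or values raised to the background, 0 members had an at least 2-fold lower fructose effect in KO. The mean over members in place of the median was 0.19 for KO minus WT in fructose medium. Centring, quantile and loess settings shifted the median of all genes by at most 0.03.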

Other observations

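A further 3 probe sets name several genes of these families and stayed out of the counts. The probe set shared by Cyp2c67 and Cyp2c68 read 10.46 in KO fructose, 10.34 in KO control, 10.15 in WT fructose and 10.32 in WT control. Its KO minus WT difference was 0.32 in fructose and 0.03 in control medium, beside 0.52 and 0.40 for the probe set of Cyp2c68 alone. The probe sets shared by Cyp3a41a, Cyp3a41b, Cyp3a11 and Cyp3a44 read 10.08 and 9.95 in KO fructose, 9.81 and 9.67 in KO control, 9.96 and 9.81 in WT fructose, and 9.88 and 9.73 in WT control. Both were higher with fructose by 0.27 in KO and by 0.09 and 0.08 in WT, whereas the probe set of Cyp3a11 alone differed by 0.12 and 0.07 and that of Cyp3a44 by 0.04 and 0.74.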
